A study of Mus musculus with 8 samples.

Results

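The signal peptidase complex and the Sec61 channel are described here by the RNA levels of their 8 subunit genes, out of 39388 genes in the count table. The members were taken by name: Spcs1, Spcs2, Spcs3, Sec11a and Sec11c of the signal peptidase, and Sec61a1, Sec61b and Sec61g of the channel. They were chosen with results of this comparison known, since Spcs2 had stood out by its lower counts in shTlr7. The values of Spcs2 are therefore a description, and the question put to the data is whether Spcs2 differed alone. The libraries come from spheroids of 4T1, a mouse mammary carcinoma cell line, grown in hanging drops. All cells carried a lentivirus, with a scrambled short hairpin RNA in the 4 control libraries (shCtrl) and a hairpin against Tlr7 in the 4 others (shTlr7). The labels describe 1 hairpin per group and give no sequence for it. Whether replicates were separate cultures is not stated, so every p-value refers to the spread among these libraries, part of which may be technical.

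Proteins that enter the secretory pathway are fed through the Sec61 channel into the endoplasmic reticulum (ER) while they are made. Sec61a1 encodes the pore, and Sec61b and Sec61g encode the small subunits beside it. The signal peptidase sits next to the channel and cuts off the N-terminal signal peptide. Its catalytic subunit is encoded by either Sec11a or Sec11c, each of which assembles with the products of Spcs1, Spcs2 and Spcs3. The Spcs3 product is needed for cleavage, while those of Spcs1 and Spcs2 are accessory subunits, and the latter contacts the channel.

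Library totals ranged from 18111623 to 93787535 counts. Tlr7 reads numbered 9 over the 4 control libraries and 7 over the 4 shTlr7 libraries, at most 4 in any of them, too few to check the knockdown. A count of 0, as in shTlr7 replicates 1 and 4, allows up to 0.166 and 0.106 CPM (3 counts over the library total, counting error only), where CPM is counts per 1000000 counts of the library. All 8 epithelial markers examined were detected at 1 CPM or more. Their sum lay between 6114 and 6663 CPM in shCtrl and between 4665 and 5138 in shTlr7. The 5 keratins had lower means in shTlr7 (Krt7 1446 and 633 CPM, Krt14 36.2 and 3.25 CPM), while Epcam (706 and 778 CPM), Cdh1 (441 and 505 CPM) and Cldn4 (535 and 673 CPM) had higher ones. The part of these shifts in the results that follow was not tested. Of the leukocyte markers examined, Adgre1 and Lyz2 had no count in any library, and the sum of the list did not exceed 1.52 CPM. The fibroblast list summed to between 43.8 and 45.2 CPM in shCtrl and between 43.0 and 47.8 CPM in shTlr7. Most of this was Pdgfra, with means of 42.4 and 43.5 CPM, and its source was not tested. The endothelial and adipocyte lists did not exceed 0.641 and 0.0441 CPM.

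Spcs2 lies on the minus strand of chromosome 7 (99837569 to 99870340, GRCm38.p6) and overlaps in span with Xrra1, which is read from the plus strand. The principal Spcs2 transcript starts at 99858977 and faces the first base of Xrra1 at 99859116 in GENCODE M21, while RefSeq gives 99859218 as the start of Xrra1. The 138 bases between these GENCODE starts are shown because Spcs2 is the member that differed most. They are given 5′ to 3′ on the Spcs2 strand, chr7:99858978-99859115, from the RefSeq promoter table of GRCm38.p6. No motif searched falls within this stretch, so no base is in capitals.
Spcs2 to Xrra1: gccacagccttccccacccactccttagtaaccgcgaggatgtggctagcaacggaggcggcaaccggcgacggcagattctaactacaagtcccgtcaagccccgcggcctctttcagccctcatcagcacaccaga
The stretch has a GC content of 61.6%. Promoter windows of 300 bases were available for 5 members (Spcs1, Spcs2, Sec11a, Sec61b and Sec61g). In these, on both strands, CCAAT was found in Spcs2 and Sec61g, and in 37.4% of all 32851 windows. In Spcs2 its first base was at -45 from the start used by the RefSeq promoter table. That position is outside the printed stretch, downstream of the GENCODE start of the principal Spcs2 transcript. CCACG was found in Spcs2, Spcs1 and Sec11a, and in 32.8% of all windows. The full ER stress element, in which CCAAT is followed by CCACG after a spacer, was in none of the 5 and in 0.119% of all windows. The XBP1-type word TGACGTG was in none of the 5 and in 2.01% of all windows.

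Spcs2 RNA was about 3 times lower in shTlr7. Its CPM values, scaled by TMM (a correction for library composition), were 141, 146, 135 and 146 in shCtrl replicates 1 to 4, and 47.9, 48.1, 48.3 and 48.3 in shTlr7 replicates 1 to 4. The groups lay far apart, and the 4 shTlr7 libraries were almost equal. Their coefficient of variation of 0.388% was below the counting error of 3.34% that the 898 reads of shTlr7 replicate 1 carry by themselves. The log2 fold change was -1.56 ± 0.04 (SE, 95% interval -1.65 to -1.47), a 2.95-fold lower level. A fall of at least this size was seen in 258 of 13342 genes tested, or 1.93%. In bulk RNA, fewer cells with the transcript and less transcript per cell cannot be told apart.

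None of the other signal peptidase genes moved as far. Spcs3, the subunit needed for cleavage, had 199, 205, 198 and 190 CPM in shCtrl and 181, 193, 190 and 188 CPM in shTlr7, and the groups overlapped. Its log2 fold change was -0.07 (95% interval -0.16 to 0.01, edgeR adjusted p = 0.130). Asb5, whose exons overlap those of Spcs3 on the opposite strand, had 8 counts in shCtrl and 6 in shTlr7. Spcs1, an accessory subunit like Spcs2, had 62.4, 65.3, 67.3 and 63.4 CPM in shCtrl and 70.5, 69.6, 69.0 and 67.2 CPM in shTlr7. The highest shCtrl library lay just above the lowest shTlr7 library. The log2 fold change of Spcs1 was 0.10 (95% interval 0.004 to 0.19), with an edgeR adjusted p of 0.0711. Exons of Spcs1 overlap those of Glt8d1 on the opposite strand, and the strand setting of the counts is not given in the sources used here. Glt8d1 itself had a log2 fold change of -0.28 ± 0.08 (SE).

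The catalytic subunit genes differed from each other. Sec11c fell, from 112, 121, 113 and 112 CPM in shCtrl to 85.9, 92.9, 96.8 and 97.0 CPM in shTlr7. No shTlr7 library reached the lowest shCtrl library. The log2 fold change was -0.30 ± 0.05 (SE, edgeR adjusted p = 1.45e-04), a 1.23-fold lower level. Sec11a stayed within 63.6 and 66.3 CPM in shCtrl and within 64.3 and 67.8 CPM in shTlr7, with a log2 fold change of 0.03 (95% interval -0.06 to 0.12, edgeR adjusted p = 0.596). Some exons annotated to Sec11a overlap Nmb on the same strand, which had under 1 CPM in every library.

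The difference between these catalytic genes was also tested itself. The log2 ratio of Sec11c to Sec11a, read only for its change since the genes differ in length, was 0.81, 0.87, 0.82 and 0.76 in shCtrl replicates 1 to 4. It was 0.37, 0.53, 0.53 and 0.52 in shTlr7 replicates 1 to 4. All 4 shTlr7 values lay below all 4 shCtrl values. Among single genes, the groups did not overlap for 49.8% of all genes tested, and 20.3% fell at least as far as Sec11c. Such a share was not computed for ratios. The difference between the means was -0.33 (two-sided exact permutation test over 70 splits, p = 0.0286, the smallest this design allows).

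In the Sec61 channel, the pore gene rose slightly and the small subunits did not pass the threshold. Sec61a1 had 293, 286, 285 and 282 CPM in shCtrl and 312, 313, 322 and 296 CPM in shTlr7, groups that did not overlap but lay close together. Its log2 fold change was 0.12 ± 0.04 (SE, edgeR adjusted p = 0.0208). The call was lost without shCtrl replicate 3 (edgeR adjusted p = 0.0581) and without shTlr7 replicate 3 (edgeR adjusted p = 0.0517). Of the 50-base words of the principal Sec61a1 transcript, 14.6% also lie, on the opposite strand, in the antisense gene Gm44170.

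Sec61b ranged from 38.4 to 41.0 CPM in shCtrl and from 38.9 to 41.5 CPM in shTlr7, the closest match of all members. Its log2 fold change was 0.01 (95% interval -0.09 to 0.11, edgeR adjusted p = 0.853). Sec61g had low values, from 3.40 to 3.87 CPM in shCtrl and from 3.28 to 3.74 CPM in shTlr7. Its log2 fold change was -0.12 (95% interval -0.36 to 0.11, edgeR adjusted p = 0.357), so a change of up to about that width was not detectable at its depth of 70 to 318 counts. Both small genes share sequence with pseudogenes, and Sec61b also with the predicted gene Gm10320. Of the 50-base words of the principal transcript, 41.0% of those of Sec61b and 20.5% of those of Sec61g also occur in transcripts of other genes, so their levels are uncertain. For Spcs2 this share was 5.11%, all with the pseudogene Spcs2-ps.

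**Figure D1:**
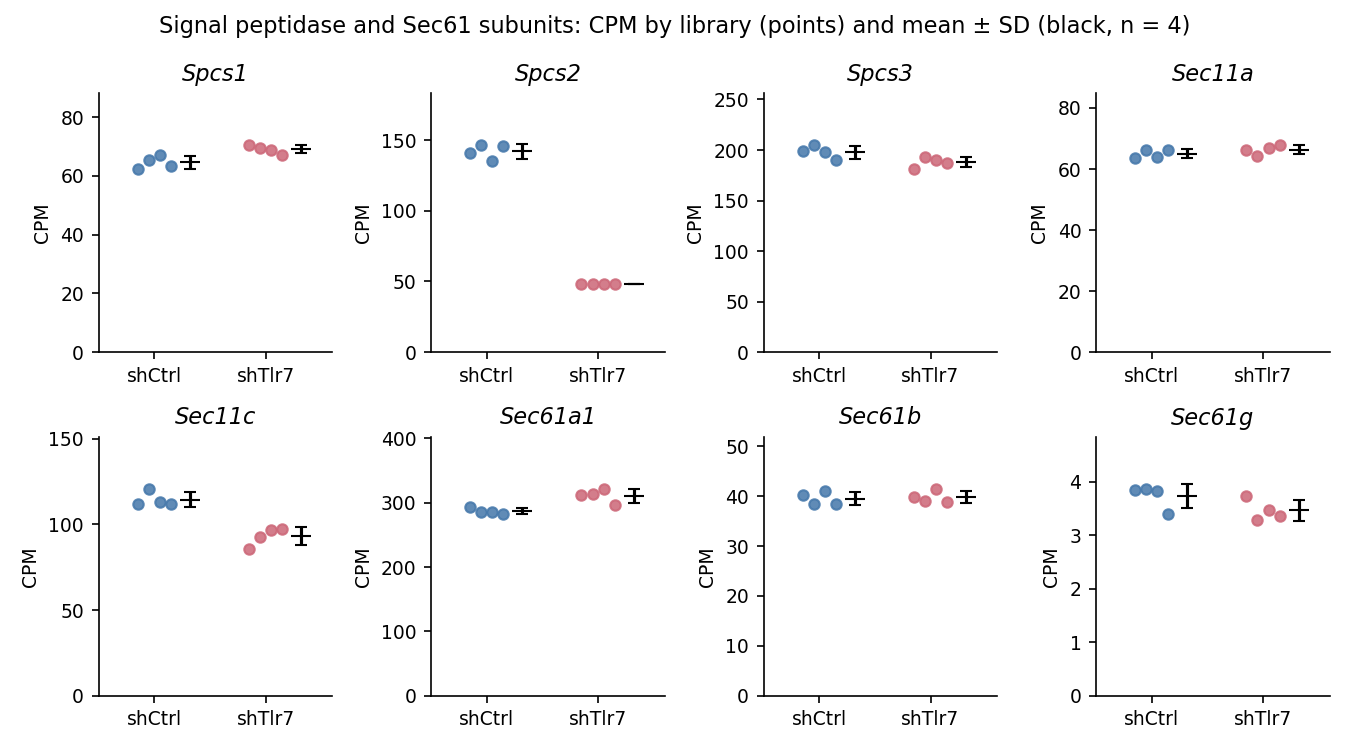
CPM (y axis, from 0, a scale of its own in each panel) of the 8 subunit genes in the 4 shCtrl and 4 shTlr7 libraries; points are libraries in the order of replicates 1 to 4, and black bars are mean ± SD. Spcs2 drops from 142 to 48.1 CPM on average, while the other panels show groups that overlap or lie close together.

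Counted over the complexes, 1 member was higher (Sec61a1), 2 were lower (Spcs2 and Sec11c) and 5 did not pass the threshold of an adjusted p under 0.05 (edgeR quasi-likelihood test). Over all 13342 genes tested, 56.0% passed, 28.7% higher and 27.2% lower, so 3 of 8 is no more than the background. The groups did not overlap for 3 members, against 49.8% of all genes. All 8 members passed the filter on low counts. What set Spcs2 apart was the size of the difference: the log2 fold changes of the other 7 lay between -0.30 and 0.12, and none of them differed by more than 1.23-fold. When a change beyond 1.2-fold was required (glmTreat in edgeR), 24.5% of all genes passed, and Spcs2 was the only member to do so, with Sec11c at an adjusted p of 0.281. Spcs2 had been chosen for its lower counts in this comparison, so its size and its passing here are a description. Scaling by library size only moved the median of all genes up by 0.11. With it, 6 members passed (4 higher, 2 lower) against 59.9% of all genes, since Spcs1 (0.20), Sec11a (0.14) and Sec61b (0.12) were then called higher.

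**Figure D2:**
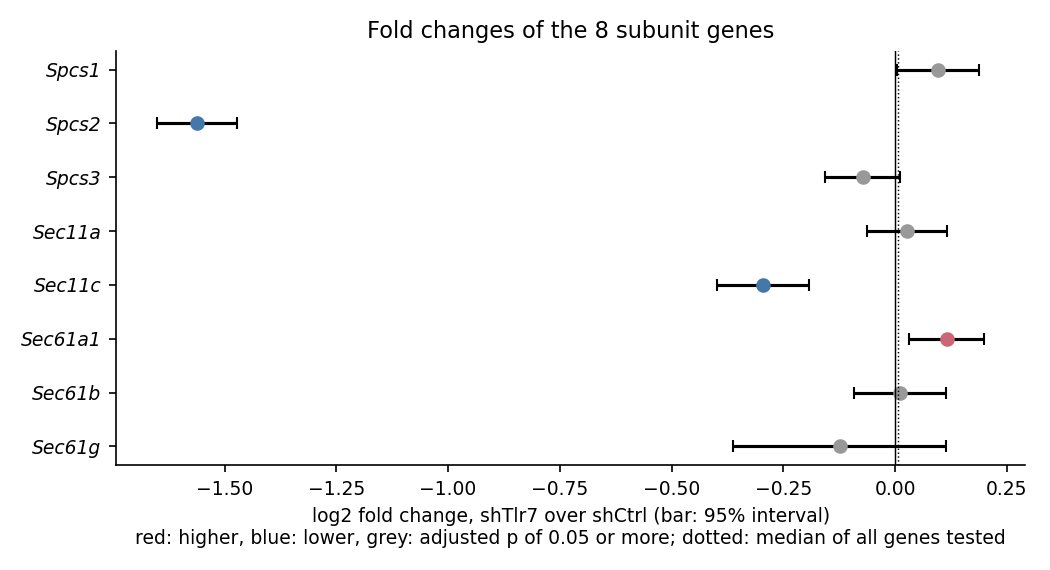
Log2 fold changes (x axis, shTlr7 over shCtrl) of the 8 subunit genes with 95% intervals of the edgeR fit; colours mark calls, and the dotted line is the median of all genes tested. Spcs2 lies at -1.56, and the other 7 lie between -0.30 and 0.12.

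Spcs2 was compared with the mean of the other 7 members as a ratio within each library, which does not depend on scaling between libraries. This ratio cannot show whether another member changed too, so it does not test whether Spcs2 differed alone. The log2 CPM of Spcs2 minus the mean log2 CPM of the 7 others was 1.16, 1.18, 1.08 and 1.24 in shCtrl replicates 1 to 4. In shTlr7 replicates 1 to 4 it was -0.36, -0.35, -0.38 and -0.34. The difference was -1.53 (two-sided exact permutation test over 70 splits, p = 0.0286, the smallest this design allows). Because Spcs2 had been chosen for its low counts in this comparison, this outcome was fixed beforehand, and that p is no evidence.

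Spcs2 was also lower against each member taken singly. The difference in log2 ratio was -1.66 against Spcs1, -1.49 against Spcs3, -1.59 against Sec11a and -1.26 against Sec11c. It was -1.67 against Sec61a1, -1.57 against Sec61b and -1.45 against Sec61g. In all 7 pairs the 4 shTlr7 libraries lay below the 4 shCtrl libraries, which the choice of Spcs2 for its low counts had already fixed, so these differences are a description. The smallest difference was that against Sec11c, which fell as well. Spcs2 was not the only member called, since Sec11c fell and Sec61a1 rose.

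**Figure D3:**
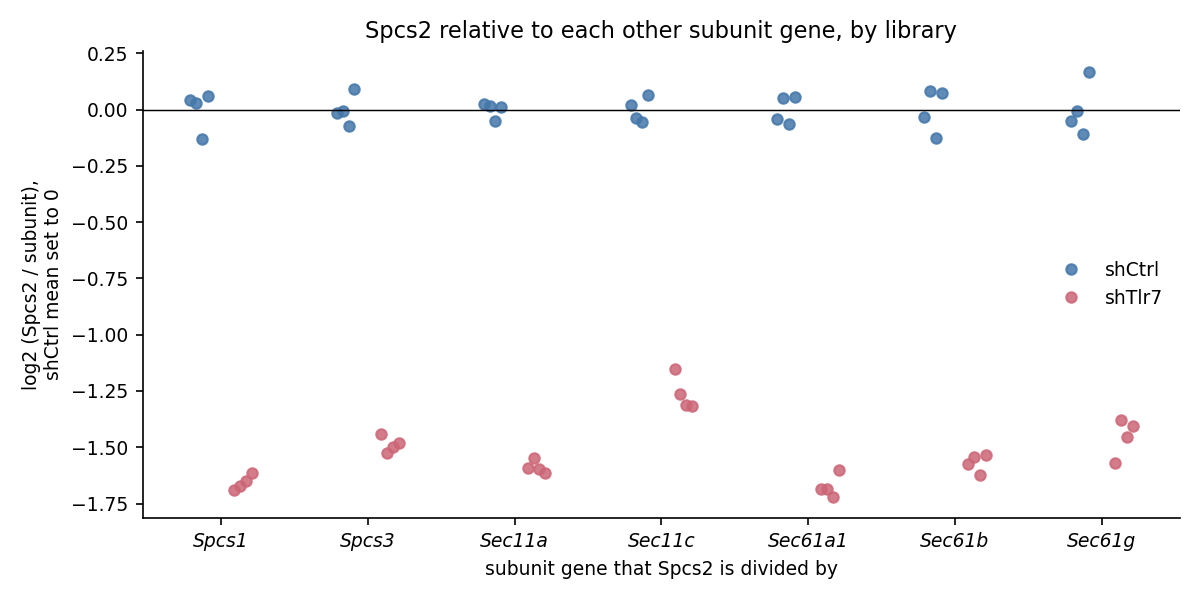
Log2 ratio of Spcs2 to each of the other 7 subunit genes (x axis) in each library, with the shCtrl mean set to 0 (y axis); points are libraries. In every pair the shTlr7 libraries lie well below the shCtrl libraries, with a mean difference of -1.26 against Sec11c and of -1.67 against Sec61a1.

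Levels of different genes can be compared only per length. With the length of all annotated exons of a gene, Spcs2 stood at 33.6 ± 1.23 CPM per kb (SD, n = 4) in shCtrl, below Spcs3 (57.0 ± 1.76), Sec61a1 (42.6 ± 0.689) and Spcs1 (41.8 ± 1.41), and its libraries overlapped those of Sec61b (31.1 ± 0.988). Sec11c (16.8 ± 0.637 CPM per kb) and Sec11a (14.1 ± 0.311 CPM per kb) followed. Sec61g was lowest at 1.51 ± 0.0909 CPM per kb. Sec61a1 and Spcs1 were neighbours in this order that overlapped.

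In shTlr7, Spcs2 was at 11.4 ± 0.0442 CPM per kb and lay below both catalytic subunits (Sec11a 14.4 ± 0.323 and Sec11c 13.7 ± 0.764 CPM per kb), with no overlap. Among the 5 signal peptidase genes it moved from rank 3 to rank 5. Its share of their summed level per length was 20.6% in shCtrl and 8.24% in shTlr7, or 12.9% and 5.06% with the length of the longest principal transcript. With that transcript length, which is much shorter for Sec11c (860 against 6808 bases), Sec11c had the highest mean in both groups at 133 ± 5.05 and 108 ± 6.05 CPM per kb, but its libraries overlapped those of Spcs1 in shTlr7. Spcs2 then went from 48.8 ± 1.79 CPM per kb, where its libraries overlapped those of Sec11a, to 16.6 ± 0.0642 CPM per kb, where they did not. The order among the subunits thus rests on the length used, while Spcs2 was lowest of the signal peptidase genes in shTlr7 with both lengths.

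**Figure D4:**
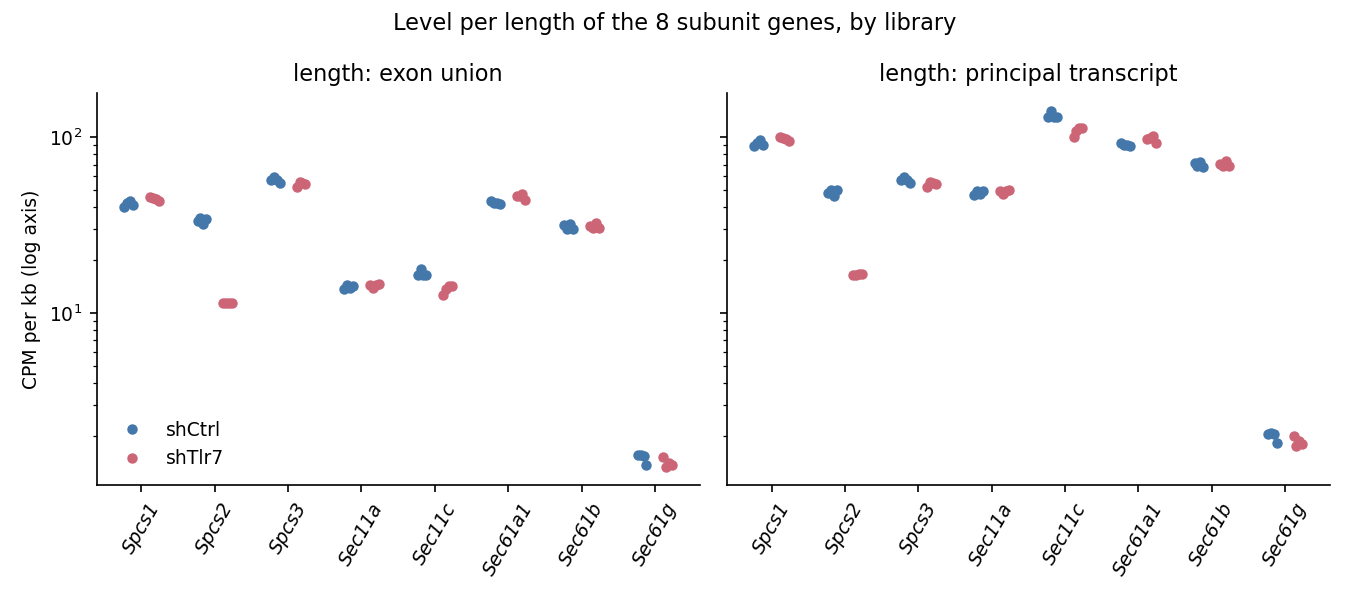
CPM per kb (y axis, log scale) of the 8 subunit genes in each library, with the length of all annotated exons (left) and of the longest principal transcript (right); points are libraries. Spcs2 lies lowest of the signal peptidase genes in shTlr7 in both panels, and Sec61g is lowest of all 8.

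Of the 3 nearest genes on each side of Spcs2 on chromosome 7, only Neu3 and Rnf169 passed the filter on low counts. Neither was called lower, against 27.2% of all genes tested, and so few genes say little about the region. Neu3, a sialidase gene on the side of lower coordinates (99811434 to 99828457), rose from 2.54 ± 0.525 to 3.63 ± 0.436 CPM (SD, n = 4), a log2 fold change of 0.53 ± 0.15 (SE, edgeR adjusted p = 0.00882). Xrra1, on the other side of the printed stretch, had 4, 18, 3 and 9 counts in shCtrl and 8, 16, 15 and 17 counts in shTlr7, too few to pass the filter. Rnf169, an ubiquitin ligase gene beyond Xrra1, had 33.0 ± 2.56 CPM in shCtrl and 33.5 ± 0.457 CPM in shTlr7 (SD, n = 4; log2 fold change 0.02, edgeR adjusted p = 0.776). The lncRNA Gm38405 had 3 counts in all, and the olfactory receptor genes Olfr520 and Olfr521 had none. No exon of another gene overlaps the exons of Spcs2 in GENCODE M21.

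By the rule set for likeness, the genes whose log2 CPM followed that of Spcs2 most closely over the 8 libraries were Cp, Tcf4, Tmsb4x, Nfe2l3 and Tns3. Their Pearson correlations with Spcs2 were 0.999 for all 5. The points share their libraries and fall into 2 groups, so these values mainly describe the distance between the groups. Cp encodes ceruloplasmin, Tcf4 and Nfe2l3 transcription factors, Tmsb4x the actin-binding thymosin beta 4 and Tns3 a focal adhesion protein. Their log2 fold changes were -2.73, -1.11, -1.02, -1.17 and -1.63 in the order Cp, Tcf4, Tmsb4x, Nfe2l3 and Tns3.

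The other genes of protein entry into the ER were counted from lists chosen by function. Of 72 genes tested in 6 lists, 27 were higher, 15 lower and 30 did not pass the threshold, a share of 58.3% called against 56.0% of all genes. Their median log2 fold change was 0.08, beside 0.01 for all genes. None of them fell as far as Spcs2: the largest fall was -0.73. A fall as large as that of Spcs2 was seen in only 1.93% of all genes tested. Since Spcs2 had been chosen for its lower counts, this is a description. With scaling by library size only, 46 were higher and 10 lower, against 5503 higher and 2483 lower (59.9%) of all genes. The medians of the Sec61 partners and of oligosaccharyltransferase were then 0.08 and 0.11, beside 0.11 for all genes. The other lists lay above that, at 0.32 for the signal recognition particle and its receptor and 0.29 for signal peptide disposal. Multipass and tail-anchor insertion was at 0.25, and the XBP1- and ATF6-induced genes were at 0.13.

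The signal recognition particle (SRP) brings ribosomes with a signal peptide to the ER membrane. Of 9 tested genes of SRP and its receptor, 5 were higher and 1 lower, with a median log2 fold change of 0.21. The share called was 66.7%, against 56.0% of all genes tested (28.7% higher, 27.2% lower). Srp14, a subunit that slows translation together with Srp9, rose from 55.0 ± 4.00 to 75.9 ± 3.45 CPM (SD, n = 4, log2 fold change 0.47). Srp9 had a log2 fold change of 0.27. The receptor subunit genes Srprb and Srpr had log2 fold changes of 0.37 and 0.21.

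Partners of the Sec61 channel went both ways, with 5 of 13 higher, 2 lower and a median of -0.03. The share called was 53.8%, against 56.0% of all genes tested. Hspa5, the ER chaperone BiP that pulls chains through the channel, rose from 1873 ± 79.4 to 2313 ± 122 CPM (SD, n = 4, log2 fold change 0.30). Ssr4, a subunit of the translocon-associated TRAP complex, had a log2 fold change of 0.37, Dnajc1, a J-domain partner of BiP, of 0.28, and Sec62, which serves post-translational entry, of 0.23. The 2 lower genes were Tram2 (log2 fold change -0.53) and Sec61a2, a paralogue of the pore gene (log2 fold change -0.31). Both were singled out after their values were seen. Sec61a2 fell from 99.4 ± 11.1 to 80.1 ± 5.09 CPM (SD, n = 4). Oligosaccharyltransferase, which adds N-glycans to entering chains, had 2 of 12 genes higher and 3 lower, with a median of -0.001. Here 41.7% were called, below the 56.0% of all genes. Ost4 and Krtcap2, which encode small subunits, had log2 fold changes of 0.50 and 0.37. Magt1 and Stt3b, which encode an oxidoreductase and a catalytic subunit, had log2 fold changes of -0.39 and -0.24. Stt3a, another catalytic subunit gene, was also called lower (-0.13). Tusc3 of the same list did not pass the threshold (0.02, edgeR adjusted p = 0.784).

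Insertion of multipass and tail-anchored membrane proteins had 10 of 19 tested genes higher and 4 lower, with a median of 0.14. The share called was 73.7%, against 56.0% of all genes tested (28.7% higher, 27.2% lower). Emc9 of the ER membrane complex rose from 7.69 ± 0.764 to 14.6 ± 1.31 CPM (SD, n = 4), the largest rise of all the lists (log2 fold change 0.93). Ubl4a, of the complex that hands over tail-anchored proteins, had a log2 fold change of 0.70, Caml, a receptor subunit for them, of 0.46, and Tmco1, of the multipass translocon, of 0.44. Emc6, Get1 and Bag6 did not pass the filter, with 4, 49 and 0 counts in all.

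Cut signal peptides are cleared from the membrane by signal peptide peptidase, the product of H13 (also named Hm13). H13 rose from 140 ± 8.32 to 175 ± 1.97 CPM (SD, n = 4, log2 fold change 0.33, edgeR adjusted p = 2.93e-05). Of its relatives, Sppl2b had a log2 fold change of 0.28, Sppl3 of -0.27 and Sppl2a, which did not pass the threshold, of 0.08 (edgeR adjusted p = 0.124). ER genes induced by XBP1 and ATF6, the factors of the unfolded protein response, had 3 of 15 higher and 4 lower, with a median of 0.03. In this list 46.7% were called, against 56.0% of all genes tested. Edem1, which sorts misfolded glycoproteins for degradation, fell from 149 ± 3.87 to 90.2 ± 3.53 CPM (SD, n = 4, log2 fold change -0.73). The disulphide isomerase genes Pdia4 and Pdia6 had log2 fold changes of -0.39 and -0.22, and the BiP cofactor gene Sdf2l1 of 0.39.

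**Figure D5:**
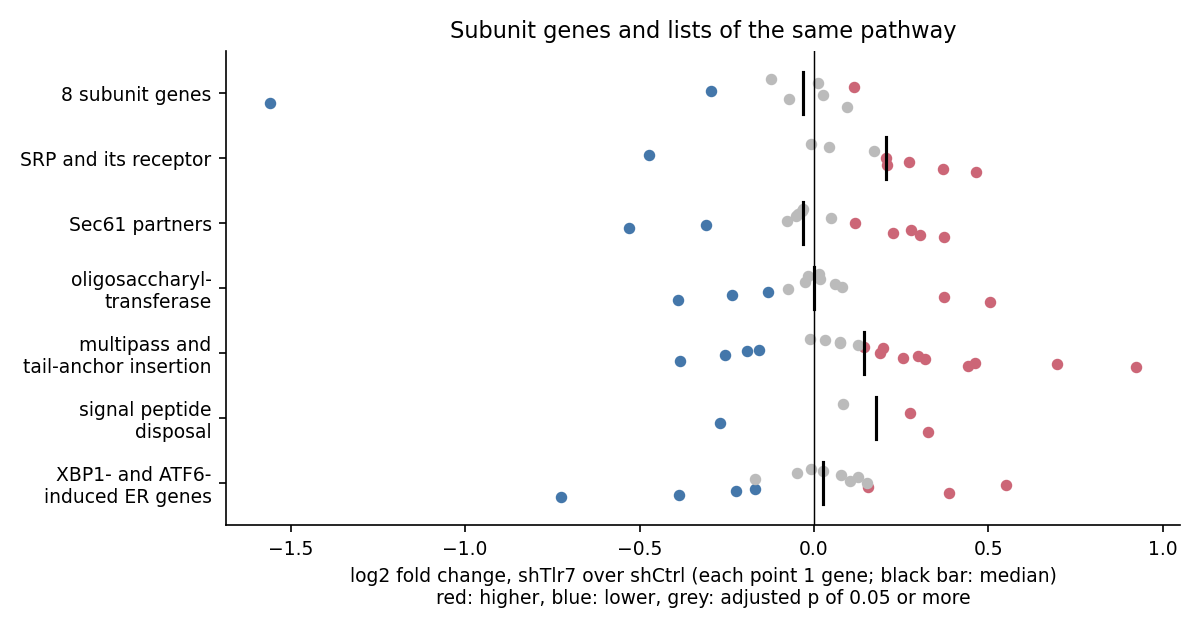
Log2 fold changes (x axis, shTlr7 over shCtrl) of the 8 subunit genes and of 6 lists of the same pathway (y axis); each point is a gene, coloured by its call, and black bars are medians. Spcs2 at -1.56 lies to the left of all list members, of which the lowest is at -0.73.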

How the data were processed

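The deposited values are raw counts of reads for each gene, not normalized, in 1 column per library. STAR 2.7.5, DESeq2 1.32.0 and the build GRCm38 are listed in the submitters' processing notes, with no role attached. Counting program and strand setting: not given in the sources used here. Groups came from sample titles. The members and lists were chosen with earlier results of these data known.

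Rows of 1 symbol that differ by a numbered suffix were summed (2379 of 41730 rows, none of a member), which left 39388 genes. In R 4.3.3 with edgeR 4.0.16, filterByExpr kept 13342 genes, scaled by TMM. Groups were compared by the quasi-likelihood test (robust glmQLFit, group as the only term) with Benjamini-Hochberg adjustment over all genes tested and a threshold of 0.05. SE is the log2 fold change over the square root of F. Ratios were taken from log2 CPM (prior count 2) and tested by exact permutation of libraries. On simulated data the test recovered most large changes but missed most at the smallest fold simulated, and the share of unchanged genes among its calls was above the threshold. Far fewer genes were changed in the simulation than were called in these data, so these shares do not carry over. Every pair of replicates differed by more than sampling noise (chi-square per degree of freedom 2.14 to 20.3).

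Genes named are the members, Tlr7, per list the 4 with the lowest p and any called at 1.5-fold or more, the 5 most like Spcs2, the 3 nearest genes on each side of it, and genes whose exons overlap a member. Sec61a2, Tram2, Stt3a and Tusc3 were named outside this rule, after their values were seen. The planned RefSeq exon lengths were replaced by GENCODE M21 exon lengths (GRCm38). Alternatives were RLE, upper-quartile and library-size scaling, copies not summed, DESeq2 1.42.0, limma-voom (limma 3.58.1), other filters, an adjusted p under 0.01, glmTreat, thinned libraries, prior count 0.5, the replicate block, and leaving out libraries.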

Additional observations from a re-analysis of the deposited data

Results flagged for a closer look

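Some member values stood apart from the other libraries of their group, by a gap test that flags about 1 in 20 groups by chance, applied to 20 groups of 4 libraries. Sec11c was at 121 CPM in shCtrl replicate 2, above the range of 112 to 113 CPM in the other shCtrl libraries. Sec61g was at 3.40 CPM in shCtrl replicate 4, below 3.82 to 3.87 CPM in the other 3. The log2 ratio of Sec11c to Sec11a was 0.37 in shTlr7 replicate 1, below 0.52 to 0.53 in the other 3, and the difference between groups was -0.29 without that library.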

How the results depend on the processing

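Spcs2 stayed lower and called under all 21 alternatives run (log2 fold change -1.59 to -1.45). It had been chosen for its lower counts in these same libraries, so its calls and its ratios under the alternatives are a description. Sec11c lost its call under glmTreat only. Sec61a1 lost it there, at an adjusted p under 0.01, and without shCtrl replicate 3 or shTlr7 replicate 3. Spcs1 gained one with upper-quartile scaling, with library size only and without shTlr7 replicate 4. The members called were 3 in the main comparison (56.0% of all genes) and 6 with library size only (4 higher, 2 lower, 59.9% of all genes). With glmTreat at 1.2-fold, 1 member and 15 list genes (10 higher, 5 lower) were called, and 24.5% of all genes. The main comparison called 42 list genes. Left-out libraries gave 2 to 4 members and 37 to 42 list genes called. The share of all genes called without these libraries is not given here, so the counts cannot be set against a background. The ratio of Spcs2 to the other 7 ranged from -1.56 to -1.50 and that of Sec11c to Sec11a from -0.34 to -0.29 over left-out libraries. Without both libraries numbered 4 these were -1.51 and -0.35 (exact permutation p = 0.1, the smallest possible with 3 a group).

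With the replicate block the ratio differences were -1.53 and -0.33 (exact sign-flip permutation p = 0.125, the smallest possible with 4 pairs). With it, 3 members and 44 list genes were called, and no member's call changed. The share of all genes called with the block is not given here. The numbers are not shown to pair the samples: deviations of same-numbered libraries correlated from -0.001 to 0.38, and 4 of 8 libraries correlated best with their own number.

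The log2 fold change of Spcs3 turned to 0.036 with library size only. That of Sec61b ranged from -0.0036 to 0.029 over left-out libraries, below 0 without shCtrl replicate 2, shCtrl replicate 4 or shTlr7 replicate 3, and was -0.0082 with limma-voom. None of these reversed values passed the threshold, and the cause was not tested. Depth limits Sec61g most.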
